A study of Mus musculus with 13 samples.

Results

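The regions described here are the AEBP2 peaks that were called in the second of a pair of ChIP-seq libraries from wild-type mouse embryonic stem cells (mESCs), were absent from the first, and lay on chromatin that carried H3K27me3 in both H3K27me3 libraries. A peak was taken when it belonged to the AEBP2 replicate 2 list, overlapped no AEBP2 replicate 1 peak and overlapped a peak of each H3K27me3 list by at least 1 bp, on chromosomes 1 to 19, X and Y of the mm9 build. Of the 6779 AEBP2 replicate 2 peaks, 4324 had no replicate 1 peak, and 1589 of these met the whole rule. A further 261 had an H3K27me3 peak in 1 list only, and 2474 had none in either list. The replicate 2 peaks that overlapped a replicate 1 peak numbered 2455, of which 1793 carried H3K27me3 in both lists and are called shared peaks below. The 1589 peaks are called second-library-only peaks or members, and none was removed by any further filter. They made up 47% of the 3382 AEBP2 replicate 2 peaks with H3K27me3 in both lists. Because the members were chosen by their AEBP2 and H3K27me3 peak calls, all lengths, scores and H3K27me3 values below are descriptions without a test.

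All 5 libraries came from wild-type mESCs of strain 129/1, a male (XY) line grown in serum with LIF on gelatine. Endogenous AEBP2 was precipitated with an antibody raised for the study (replicates 1 and 2), and the histone mark with an antibody that the labels call anti-H3K27 and the paper H3K27me3 (replicates 1 and 2). The fifth library was FS2-AEBP2, that is AEBP2 with an N-terminal Flag-StrepII tag expressed from a plasmid and precipitated through the tag. It followed another ChIP protocol, with beads blocked with albumin and yeast tRNA, and has 1 sample and no replicate. The labels give the same cell line for it, whereas the paper names E14 mESCs for the tagged protein. Nothing says that replicates came from separate cultures. The AEBP2 lists held 2877 and 6779 peaks, the H3K27me3 lists 14112 and 9275, and the FS2-AEBP2 list 2884. Read numbers are not part of the lists and the sequencing depth is unknown (some list names include a figure that may be a read total, which nothing explains and which was not used), and a peak missing from replicate 1 cannot be told apart from a peak that lay under its calling threshold. File names and sample records disagree on which H3K27me3 list is replicate 1, which does not touch the membership because both were required.

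Polycomb repressive complex 2 (PRC2) methylates lysine 27 of histone H3 through its catalytic subunit EZH2, held together by SUZ12 and EED. AEBP2 is a zinc finger protein that joins PRC2 together with JARID2 in one of its variant forms. In mESCs, H3K27me3 lies mainly over CpG islands, unmethylated stretches rich in CpG dinucleotides, at the promoters of genes that control development and are silent or barely transcribed. Peak lists carry no expression values, so the identity of the cells could not be checked from transcripts. No promoter of the 20 pluripotency genes in the list used here had a member, and 2 of these promoters carried H3K27me3 in both lists. Over all protein-coding promoters 4.08% had a member, and a list of 20 is too small to be told apart from that share.

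Sequences under members show what kinds of DNA they hold. The 4 promoter members shown first are those of highest score with an FS2-AEBP2 peak (Prok2, Msx2) and without one (Cacng4, Cd302) for which a stretch free of annotated UTR could be printed. Each stretch was taken from a window centred on the longest CpG-island-like region of the member (defined below), so its CpG density exceeds that of the whole member, which was 2.68 CpG per 100 bp at Msx2 and 6.15 at Cacng4. The Prok2 stretch, chr6:99676387-99676580, lies just upstream of the start of the gene for the secreted peptide prokineticin 2. It holds 32 CpG in 194 bases. The Msx2 stretch, chr13:53567781-53568079, is all coding sequence of this homeobox factor and holds 33 CpG in 299 bases. The Cacng4 stretch, chr11:107655331-107655630, holds 28 CpG in 300 bases, of which 72 bases are coding. Cacng4 encodes a transmembrane protein of the calcium channel gamma family that accompanies AMPA-type glutamate receptors. The Cd302 stretch, chr2:60122031-60122177, from a gene for a C-type lectin receptor, holds 17 CpG in 147 bases, of which 61 bases are coding. All are the plus strand of mm9, 5′ to 3′, with each CpG in capitals.
Prok2: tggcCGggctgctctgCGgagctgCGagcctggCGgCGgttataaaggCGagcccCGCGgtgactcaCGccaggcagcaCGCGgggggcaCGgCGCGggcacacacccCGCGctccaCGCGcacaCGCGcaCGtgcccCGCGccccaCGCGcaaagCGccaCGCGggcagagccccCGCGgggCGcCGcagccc
Msx2: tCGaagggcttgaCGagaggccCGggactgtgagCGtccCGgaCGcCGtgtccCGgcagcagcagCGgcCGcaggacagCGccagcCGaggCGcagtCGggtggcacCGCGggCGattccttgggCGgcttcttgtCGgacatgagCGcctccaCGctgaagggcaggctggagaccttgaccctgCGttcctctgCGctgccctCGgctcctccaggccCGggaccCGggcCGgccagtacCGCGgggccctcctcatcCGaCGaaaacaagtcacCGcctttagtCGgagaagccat
Cacng4: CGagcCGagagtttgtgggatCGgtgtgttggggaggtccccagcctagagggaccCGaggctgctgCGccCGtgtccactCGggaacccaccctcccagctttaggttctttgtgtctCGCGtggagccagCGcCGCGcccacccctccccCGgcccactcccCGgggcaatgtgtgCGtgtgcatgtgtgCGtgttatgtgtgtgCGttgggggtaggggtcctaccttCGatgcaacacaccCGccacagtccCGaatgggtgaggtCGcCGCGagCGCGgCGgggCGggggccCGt
Cd302: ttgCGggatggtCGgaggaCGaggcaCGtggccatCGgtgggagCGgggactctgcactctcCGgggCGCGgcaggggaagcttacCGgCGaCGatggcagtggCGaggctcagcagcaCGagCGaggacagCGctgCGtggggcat

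Other members sat in an H3K27me3 region with a replicate 1 peak and contained no CpG-island-like region, so their CpG is sparse by selection. The 2 shown, from a window at the centre of the member, are the highest scoring of that kind with and without an FS2-AEBP2 peak, chosen after their values were seen. The stretch upstream of Zfhx3, a large zinc finger and homeobox factor, is chr8:111223740-111224039, centred 14654 bp before the start site. It holds 10 CpG in 300 bases at a GC content of 46.7%, lies in a member of 958 bp with score 17, and had an FS2-AEBP2 peak. The stretch at Ncan, which encodes the brain proteoglycan neurocan, is chr8:72644773-72644903. It is centred 66 bp before the start site, holds 5 CpG in 131 bases, and lies in a member of 248 bp with score 15 and no FS2-AEBP2 peak. Capitals again mark CpG on the plus strand of mm9.
Zfhx3 upstream: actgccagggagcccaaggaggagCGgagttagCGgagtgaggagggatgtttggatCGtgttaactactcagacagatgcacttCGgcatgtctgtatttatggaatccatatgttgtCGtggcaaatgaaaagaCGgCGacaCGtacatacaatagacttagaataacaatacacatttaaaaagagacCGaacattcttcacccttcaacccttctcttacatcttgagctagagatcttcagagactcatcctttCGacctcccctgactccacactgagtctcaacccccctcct
Ncan: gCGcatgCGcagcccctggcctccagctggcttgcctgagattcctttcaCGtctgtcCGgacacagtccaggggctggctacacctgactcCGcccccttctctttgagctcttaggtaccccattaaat

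Members were short and low in score beside the shared peaks. Their length ran from 166 to 7443 bp and its median was 1076 bp. Shared peaks had a median of 2719 bp, and the 2474 second-library-only peaks without H3K27me3 one of 457.5 bp. The score, a whole number from the peak caller whose scale is not stated, had a median of 6 in members, 14 in shared peaks and 6 in the peaks without H3K27me3. A score under 10 was held by 1304 members (82.1%) and by 29.9% of the shared peaks, and 12 members reached 20. A broad peak can hold several blocks of stronger signal, and 402 members (25.3%) had at least 2 of them, against 69.5% of the shared peaks. Members were found on every autosome and on X, where 40 lay. Their part of the AEBP2 peaks with H3K27me3 ran from 39.5% on chromosome 2 to 54.8% on chromosome 16 among the autosomes, and was 56.3% on X.

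The H3K27me3 peaks under the members were high in their lists, though below those under the shared peaks. Where several H3K27me3 peaks of a list overlapped an AEBP2 peak, the highest score was taken, and longer AEBP2 peaks can overlap more of them. The median score so taken was 13 in replicate 1 and 12 in replicate 2, against 21 and 20 under the shared peaks. Ranked within its own list, the H3K27me3 peak under a member stood at a median above 83.5% and 71.6% of the peaks of the 2 lists, and that under a shared peak above 92.9% and 89.6%. Where overlapping H3K27me3 peaks of both lists were joined to regions, the region under a member had a median length of 6226 bp, against 9572 bp under a shared peak. Regions touched by the same AEBP2 peak were taken as 1 with the gaps between them, and longer AEBP2 peaks can touch more of them. The 1589 members lay in 1468 such regions, of which 1372 held 1 member, and the most in 1 region was 7. H3K27me3 of both lists covered 1081 members (68.0%) completely. Most members were also far from any replicate 1 peak: 1366 (86.0%) were over 5 kb away, 1064 over 50 kb, and 67 (4.22%) within 1 kb.

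FS2-AEBP2, which the rule did not use, was found at 386 of the 1589 members (24.3%, 95% Wilson interval 22.2 to 26.5%). Over all AEBP2 replicate 2 peaks this share was 28.9%. It was 76.5% of the shared peaks (1372 of 1793, 74.5 to 78.4%) and 4.2% of the second-library-only peaks without H3K27me3 (104 of 2474, 3.48 to 5.07%). Members thus stood between the other classes, -52.2 percentage points from the shared peaks (95% Newcombe interval -55.0 to -49.3) and 20.1 points above the peaks without H3K27me3 (17.9 to 22.4). Neither interval holds 0. The intervals count peaks of 1 FS2-AEBP2 library and do not cover differences between experiments. When an FS2-AEBP2 peak had to cover 50% of the AEBP2 peak, the distance from the peaks without H3K27me3 was 8.93 points (7.35 to 10.6), and it was 5.85 points (4.44 to 7.39) when the FS2-AEBP2 list was limited to scores at or above its median.

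Length and score moved with this share. Among members under 500 bp, 11.0% had an FS2-AEBP2 peak, and this share was 13.8% from 500 to under 1000 bp, 29.7% from 1000 to under 2000 bp and 46.1% from 2000 bp. Shared peaks of the same lengths had 25.6%, 34.2%, 55.9% and 89.4%, so that members were lower in each class of length, by differences of -14.6 (-30.4 to -2.79) to -43.3 points (-49.8 to -36.6). Against the peaks without H3K27me3, members were higher in each class, but from 2000 bp the interval held 0 (24.7 points, -2.22 to 40.0), since only 14 peaks without H3K27me3 were that long. By score, members had an FS2-AEBP2 peak in 17.3% of cases at scores 1 to 4, 22.5% at 5 to 9, 41.4% at 10 to 19 and 58.3% (7 of 12) at 20 to 29, and no member scored higher. Shared peaks had 43.7%, 54.9%, 78.3% and 95.8% in the same classes of score, and all 4 intervals of the difference left out 0. Within H3K27me3 regions under 4 kb the share was 15.6% of members and 48.6% of shared peaks, and within regions of 16 kb and above it was 42.2% and 94.5%.

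**Figure D1:**
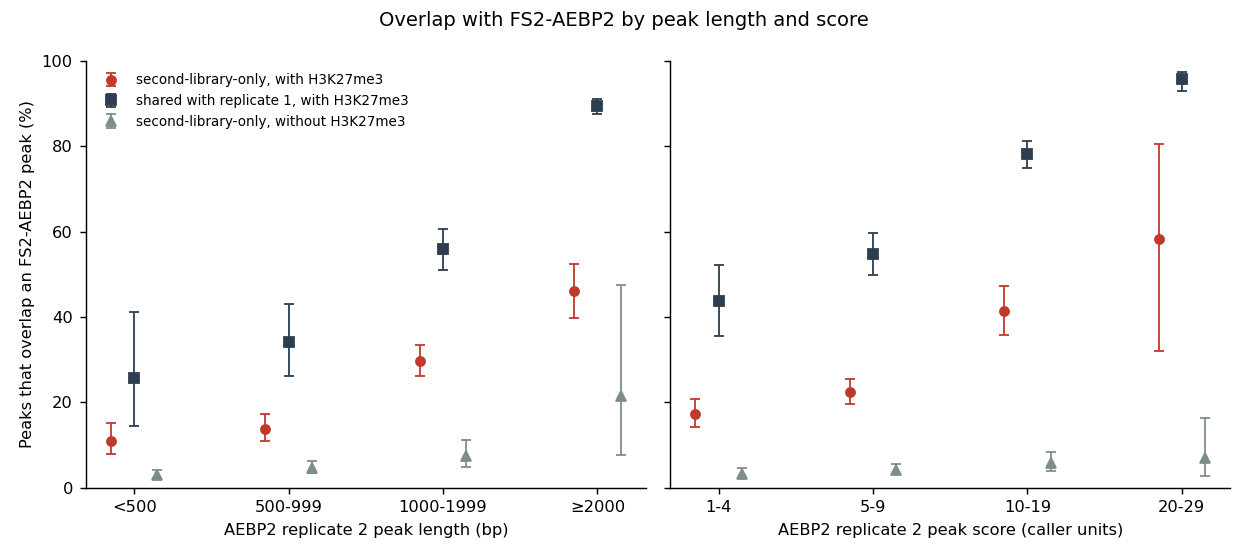
Share of AEBP2 replicate 2 peaks that overlap an FS2-AEBP2 peak (y axis, %) by peak length in bp (left) and by peak score in caller units (right). Points are shares, bars are 95% Wilson intervals over peaks, and the members (red circles) lie between the shared peaks (dark squares) and the second-library-only peaks without H3K27me3 (grey triangles) in every class of length and score.

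The members with an FS2-AEBP2 peak were longer than those without (median 1501.5 against 952 bp) and lay in longer H3K27me3 regions (7319.5 against 5846 bp). Their GC content was 59.3% against 61.9%. The FS2-AEBP2 peaks at members were themselves small, 405 peaks with a median length of 704 bp and a median score of 6, whereas the 1740 at shared peaks had medians of 1592.5 bp and 12, and the median score of the list was 9. Of these FS2-AEBP2 peaks, 25 overlapped both a member and a shared peak. The share with an FS2-AEBP2 peak was 23.8% of promoter members. For the other members, placed by their midpoint, it was 20.2% in exons, 20.8% in introns and 30.2% outside genes.

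The 12 members of highest score at promoters differed in FS2-AEBP2. The highest was at Cacng4 (chr11:107653328-107656987, 3660 bp, score 28), which had no FS2-AEBP2 peak although its H3K27me3 peaks had scores of 27 and 25. Prok2 followed (chr6:99675695-99677395, 1701 bp, score 27), with an FS2-AEBP2 peak of score 4 and H3K27me3 scores of 40 and 18. The member at Ntn4, a secreted netrin of the basement membrane, had score 23 (chr10:93103460-93104990) and no FS2-AEBP2 peak. Msx2, a homeobox factor of limb and skull development, had a member of 5001 bp and score 21 (chr13:53564524-53569524) with an FS2-AEBP2 peak of score 16. It lay 4331 bp from a replicate 1 peak in the same H3K27me3 region of 23986 bp. Gata4, a zinc finger factor of heart and endoderm, had a member of 3436 bp and score 21 (chr14:63886496-63889931) with an FS2-AEBP2 peak of score 6, and the nearest replicate 1 peak was 15721 bp away.

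Aldh1a3, an enzyme that makes retinoic acid, had a member of 2388 bp and score 21 (chr7:73571371-73573758) with an FS2-AEBP2 peak of score 3. At Syt2, a calcium sensor of synaptic vesicle release, the member had score 20, 4 stronger blocks and an FS2-AEBP2 peak of score 9 (chr1:136604406-136606930). A member of 2966 bp and score 19 covered the starts of the neighbouring genes Ppt2, a lysosomal thioesterase, and Prrt1 (chr17:34766316-34769281), with an FS2-AEBP2 peak of score 15. The uncharacterised genes 5430405G05Rik (chr2:151527092-151529035) and 2510009E07Rik (chr16:21694209-21696126) both had members of score 21 with FS2-AEBP2 peaks of scores 12 and 10. Cd302 (chr2:60121784-60122680, score 21) and Fam101b (chr11:75839886-75841527, score 20) had none. Of these 12 members, 8 had an FS2-AEBP2 peak. Those with one had scores of 19 to 27 and those without one scores of 20 to 28. A CpG-island-like region lay in each of the 12.

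Members fell into a larger group, in H3K27me3 regions with no replicate 1 AEBP2 peak, and a smaller group in regions that held one. In 1265 regions the members had no replicate 1 peak beside them, and these held 1321 members. The other 203 regions held 268 members (16.9%) together with a replicate 1 peak. Both groups had the same median score, 6, and similar median lengths, 1076 and 1073 bp. The 268 lay in longer regions, with a median of 19530 against 5536 bp, under H3K27me3 of median scores 24 and 22 against 12 and 11. They were also farther from the centre of the region, at a median of 52.9% of the way from the centre to the edge, against 26.2% for the 1321 and 23.0% for the shared peaks. The median gap to a replicate 1 peak was 2238 bp in the 268 and 212001 bp in the 1321. The rule keeps members off replicate 1 peaks, so part of this placement is set by the rule.

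**Figure D2:**
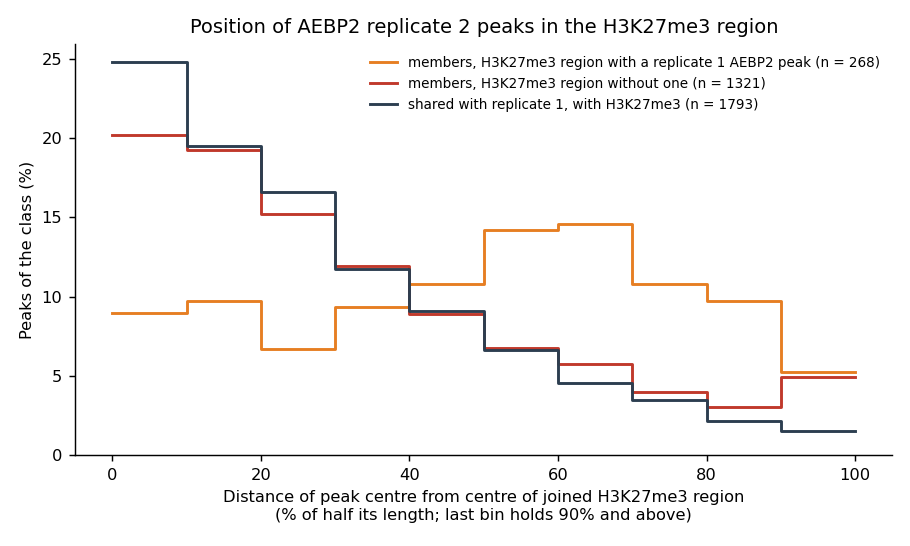
Distance of the peak centre from the centre of its joined H3K27me3 region (x axis, as % of the distance from that centre to the region's edge) against the percentage of peaks in each class (y axis). The lines for the 1321 members in regions without a replicate 1 peak (red) and the 1793 shared peaks (dark) are highest near the centre, while that for the 268 members in regions with one (orange) is highest between 50 and 70%, where 14.2% and 14.6% of them fall in the bins of 10%.

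FS2-AEBP2 was found more often at the 268 members in regions with a replicate 1 peak, at 37.3% (100 of 268, 31.7 to 43.2%), than at the 1321 others, at 21.7% (286 of 1321, 19.5 to 24.0%). The difference was 15.7 points (Newcombe interval 9.63 to 22). The intervals treat members as independent, although the 268 lay in 203 regions, so they may be too narrow. It was 10.6 points under 500 bp (1.53 to 22.5), 16.7 points from 500 to under 1000 bp (6.53 to 29.1) and 16.6 points from 1000 to under 2000 bp (5.70 to 27.8). From 2000 bp it was 14.4 points and the interval held 0 (-0.413 to 28.2). With FS2-AEBP2 peaks within 1 kb counted, the difference was 29.2 points (22.8 to 35.5). By the split the 268 lie near replicate 1 peaks (median gap 2238 bp, against 212001 bp in the others). This setting can therefore count FS2-AEBP2 peaks that belong to neighbouring AEBP2 peaks, and how many it took in was not tested. At an overlap of 1 bp, too, an FS2-AEBP2 peak can reach a member from a neighbouring peak. Of the FS2-AEBP2 peaks at members, 25 also overlapped a shared peak, and how many of them lay at the 268 was not counted. The H3K27me3 regions and their scores were larger in the 268, and the part of that in the difference was not tested.

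Examples of the smaller group lay closest to replicate 1 peaks. In an intron of Bmp7, a bone morphogenetic protein, a member of 1476 bp and score 6 lay 16 bp from a replicate 1 peak (chr2:172760418-172761893). Near Barhl2, a homeobox factor of neurons, a member of 3346 bp and score 17 lay at 120 bp (chr5:106876552-106879897), and in an intron of the ligand gene Wnt7b one of 1368 bp and score 2 lay at 134 bp (chr15:85404291-85405658). Only the Bmp7 member of these had an FS2-AEBP2 peak, of score 6. Just outside the rule were shared peaks whose overlap with a replicate 1 peak was 69 bp near Btrc, 88 bp near Fezf2 and 98 bp near Lrrfip1, with scores of 10, 6 and 4. The peak near Fezf2, a zinc finger factor of forebrain neurons, lay under an FS2-AEBP2 peak of 9219 bp and score 58.

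Some of the longest members were of this kind too. The longest, 7443 bp with score 6 (chr5:33805198-33812640), and another of 5002 bp with score 9 (chr5:33799491-33804492) lay outside genes, nearest to the homeobox gene Nkx1-1, in an H3K27me3 region of 71365 bp. Neither held a CpG-island-like region or an FS2-AEBP2 peak, and their CpG densities were 1.41 and 1.12 per 100 bp. In an intron of Bcor, a corepressor gene on X whose protein belongs to a variant PRC1, a member of 5464 bp and score 8 (chrX:11653691-11659154) had an FS2-AEBP2 peak of score 12 and a density of 8.18 CpG per 100 bp. The remaining 2 of the 5 longest had no replicate 1 peak in their region. One lay in an intron of Nfix, a nuclear factor I gene, with the nearest start site that of G430095P16Rik (6187 bp, score 15, FS2-AEBP2 score 6), and one beside Ndufa4l2 (5798 bp, score 7, no FS2-AEBP2 peak).

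CpG-island-like regions, joined 500 bp windows with at least 55% GC and a CpG frequency of at least 0.65 of that expected from base composition, were found in most members. They were present in 1252 of 1589 (78.8%, Wilson interval 76.7 to 80.7%), against 85.3% of all AEBP2 replicate 2 peaks. The share was 95.6% of the shared peaks and 83.5% of the second-library-only peaks without H3K27me3, which put members at -16.8 points (-19.1 to -14.6) and -4.68 points (-7.19 to -2.22). The first difference held in each class of length from 500 bp, at -11.2 to -13.3 points, while under 500 bp it was 1.56 points with an interval that held 0 (-13.2 to 18.1). With windows of 200 bp it was -8.12 points (-9.68 to -6.68). The second difference did not stand in all settings. It was -0.556 points (-2.39 to 1.21) with windows of 200 bp, -0.914 points (-4.29 to 2.31) for scores at or above the median, and 2.18 points (-0.231 to 4.51) for members over 5 kb from any replicate 1 peak. Without the replicate 1 H3K27me3 list it was smaller, at -2.54 points, and its interval still left out 0 (-4.99 to -0.128).

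The members in regions with a replicate 1 peak differed from the others in CpG content. A CpG-island-like region lay in 36.9% of the 268 (99 members) and in 87.3% of the 1321 (1153 members), a difference of -50.3 points (-56.1 to -44.1). The median density was 2.82 CpG per 100 bp in the 268 and 6.40 in the 1321. Shared peaks had 5.17, and second-library-only peaks without H3K27me3 had 9.58. Median GC contents were 53.7% and 62.4% in the 2 groups of members. The 1321 alone were at -8.31 points from the shared peaks (-10.4 to -6.32) and 3.81 points above the peaks without H3K27me3 (1.44 to 6.08) in their share with a CpG-island-like region. By the rule, the 268 are the parts of such regions that no replicate 1 peak covers.

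**Figure D3:**
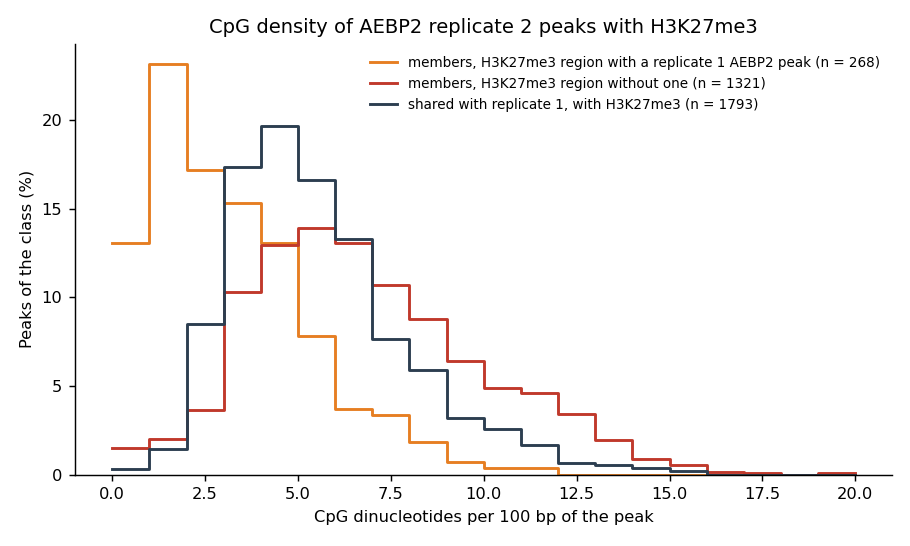
CpG dinucleotides per 100 bp of the peak (x axis) against the percentage of peaks in each class (y axis, bins of 1 CpG per 100 bp). The 268 members in H3K27me3 regions with a replicate 1 AEBP2 peak (orange) have a median of 2.82, below those of the 1321 other members (red, 6.40) and of the 1793 shared peaks (dark, 5.17).

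Start sites of protein-coding genes lay within 1 kb of 888 members (55.9%, Wilson interval 53.4 to 58.3%), against 66.6% of all AEBP2 replicate 2 peaks. Members were at -12.9 points (-16.1 to -9.62) from the shared peaks, with 68.8%, and at -16.0 points (-19 to -13) from the peaks without H3K27me3, with 71.9%. A further 183 members (11.5%) had their midpoint in an exon, 197 (12.4%) in an intron and 321 (20.2%) outside protein-coding genes. Each gene had 1 start site, its annotated 5′ end, and alternative transcript starts were not used. Members at such alternative starts can thus be counted as exonic, intronic or distal. Of all members, 391 (24.6%) were over 10 kb from any start site used, against 17.0% of shared peaks and 16.4% of peaks without H3K27me3. In regions with a replicate 1 peak 11.2% of members were at promoters, against 65.0% of the 1321 others (-53.8 points, -57.9 to -48.7). The rule keeps members off replicate 1 peaks and the promoters these cover, so part of this difference is set by the rule. For the 1321 alone the difference from the shared peaks was -3.82 points (-7.17 to -0.478), and the difference from peaks without H3K27me3 was -6.96 points (-10.1 to -3.85). Under 500 bp the order turned, with 42.4% of members and 25.6% of shared peaks at promoters (16.8 points, 0.364 to 29.2).

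Members over 10 kb from the start sites used also had CpG-island-like regions in 66.0% of cases (258 of 391) and FS2-AEBP2 peaks in 23.8% (93 of 391). At promoters these shares were 94.1% (836 of 888) and 23.8% (211 of 888). The highest scoring distal member lay 35453 bp from Foxd1, a forkhead factor of kidney and forebrain (chr13:99159653-99162683, 3031 bp, score 23, no FS2-AEBP2 peak). The next lay 128526 bp from Lhx5, a LIM homeobox gene (chr5:120751515-120753369, score 18), with an FS2-AEBP2 peak of score 8. The third was nearest to the odorant receptor gene Olfr1373, at 21684 bp (chr11:51980714-51982208, score 18), and had none. The gene names give the nearest start site and not a target. Each of these 3 members held a CpG-island-like region of 970 to 1580 bp.

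Counted by gene, members marked 912 of 22367 protein-coding promoters (4.08%), and 906 of these had no replicate 1 peak. H3K27me3 of both lists lay on 3349 promoters. Of them, 1369 (40.9%) had a replicate 1 AEBP2 peak, 898 (26.8%) had a member and no replicate 1 peak, 1007 (30.1%) had no AEBP2 peak, and 75 (2.24%) had some other replicate 2 peak. FS2-AEBP2 was at 23.3% of the 898 promoters (20.6 to 26.1%), at 75.2% of those with a replicate 1 peak (-51.9 points, -55.3 to -48.2), and at 3.38% of those with no AEBP2 peak (19.9 points, 16.9 to 22.9). A CpG-island-like region lay on 94.2% of the 898, on 96.6% of those with a replicate 1 peak (-2.43 points, -4.34 to -0.696) and on 64.6% of those with no AEBP2 peak (29.6 points, 26.2 to 32.9). The FS2-AEBP2 gap between the first 2 classes was wider than their gap in CpG-island-like regions, where shares of 94.2% and 96.6% leave little room. The part of CpG content in the FS2-AEBP2 gap was not tested. Promoters are counted here, and neighbouring promoters can share a peak.

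Gene lists were made from symbols with earlier results of these data known, so their counts are given beside the 26.8% over all H3K27me3 promoters and are descriptions. An FS2-AEBP2 peak given with a gene is one that overlaps its member. Members were few among the factors that pattern the body, and most of their promoters had a replicate 1 peak. A promoter with a replicate 1 peak cannot count as having a member alone, so these low shares are partly set by the rule. Of 40 Hox promoters, all with H3K27me3, 38 had a replicate 1 peak and 1 had a member alone. Among 128 other homeobox promoters with H3K27me3, 111 had a replicate 1 peak, 11 (8.59%) a member alone and 4 no AEBP2 peak. Over all H3K27me3 promoters, 898 had a member alone and 1007 no AEBP2 peak. The T-box factors (12 H3K27me3 promoters) and the Zic, Gli, Klf and Egr factors (8 such promoters) had no member. The homeobox genes included Msx2 (score 21), Pax8 of thyroid and kidney (score 11, 3392 bp), Pitx3 of midbrain dopamine neurons (score 10) and Gbx2 of the hindbrain border (score 9, FS2-AEBP2 score 23). Members at all 4 overlapped an FS2-AEBP2 peak, and of the 11 homeobox genes with a member, only 4 had an FS2-AEBP2 peak at the promoter.

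Other transcription factor families had few members each. The Sox list had 2 of 12 H3K27me3 promoters with a member alone, Sox30 (score 7, no FS2-AEBP2 peak) and Sox8 (score 2, FS2-AEBP2 score 4). The forkhead list had 3 of 23, namely Foxi2 (score 10), Foxj1 of ciliated cells (score 7) and Foxn4 of the retina (score 7), none with an FS2-AEBP2 peak. Gata4 was the 1 of 5 Gata promoters. Among the bHLH factors 4 of 39 had a member alone. Of these, Mesp1, a factor of early mesoderm, had a member of score 14 with an FS2-AEBP2 peak of score 5, while its neighbour Mesp2 (score 5) and Msc (score 6) had none. The promoter of Bhlhe22 had both a member (score 8, no FS2-AEBP2 peak) and a replicate 1 peak, and the member lay 1008 bp from the nearest replicate 1 peak.

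Signalling genes had members in varying number. Of 39 Wnt pathway promoters with H3K27me3, 9 (23.1%) had a member alone and 25 a replicate 1 peak. They included the receptor genes Fzd3 (score 12) and Fzd9 (score 6) and the secreted antagonists Wif1 (score 7) and Dkk2 (score 8), of which Dkk2 had an FS2-AEBP2 peak, of score 10. The BMP and TGF-beta list had 9 of 31 (29%). Its ligand Bmp3 had score 15 (FS2-AEBP2 score 7), Bmp4 score 8 (none), Tgfb1 score 6 (FS2-AEBP2 score 1), and the receptor Tgfbr3 score 8 with an FS2-AEBP2 peak of score 20. The FGF list had 2 of 16, Fgf11 (score 11) and Fgf21 (score 2), and the Hedgehog and Notch list 2 of 11, the Notch ligand Jag2 (score 6) and the Hedgehog binding protein Hhip (score 2). These last 4 had no FS2-AEBP2 peak.

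The shares with a member alone were highest, among lists of over 10 H3K27me3 promoters, for solute carriers and axon guidance. The solute carriers had 31 of 81 (38.3%) with a member alone and 29 with a replicate 1 peak. At 7 of these 31 promoters there was an FS2-AEBP2 peak. Their highest scores were at the sodium-calcium exchanger Slc8a3 (score 18, no FS2-AEBP2 peak), the glutamate transporter Slc1a2 (score 12, FS2-AEBP2 score 7), the GABA transporter Slc6a11 (score 11, FS2-AEBP2 score 7) and Slc24a3 (score 10, FS2-AEBP2 score 10). The axon guidance list had 17 of 46 (37.0%) with a member alone, and 25 with a replicate 1 peak. After Ntn4 came the semaphorin coreceptor Nrp2 (score 19, 2748 bp, no FS2-AEBP2 peak), which lay 976 bp from a replicate 1 peak, the netrin receptor Unc5a (score 14, FS2-AEBP2 score 11) and the ephrin receptor Epha6 (score 14, none).

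Of 60 potassium channel promoters, 18 had a member alone, 23 a replicate 1 peak and 16 no AEBP2 peak. This share with a member alone was close to the 26.8% over all H3K27me3 promoters. The 18 were led by Kcnk2 (score 13, FS2-AEBP2 score 5), Kcna5 (score 11) and Kcnab3 (score 11), and the last 2 had no FS2-AEBP2 peak. Kcnj3 also had a member (score 10, no FS2-AEBP2 peak), but its promoter lay outside the H3K27me3 of at least 1 list and is not among the 18. The calcium and sodium channels had 6 of 21 (28.6%), with Cacng2 (score 6) lacking and Cacna1e (score 14, 4715 bp) having an FS2-AEBP2 peak. Among neurotransmitter receptors 15 of 71 (21.1%) had a member alone. The kainate receptor Grik1 had score 14 and FS2-AEBP2 score 13, whereas the glycine receptor Glrb (score 10), the nicotinic receptor Chrna3 (score 9) and the metabotropic glutamate receptor Grm3 (score 9) had no FS2-AEBP2 peak. The symbol pattern of this list also took in the neuropeptide gene Npy and the kinase gene Adrbk2.

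Cadherins and protocadherins had 10 of 43 (23.3%) with a member alone, 12 with a replicate 1 peak and 21 with no AEBP2 peak, and included Cdh13 (score 9, FS2-AEBP2 score 7) and Cdh6 (score 7, FS2-AEBP2 score 4). An FS2-AEBP2 peak lay at the promoter of 3 of these 10 genes. Collagens, laminins and ADAMTS proteases had 9 of 41 (22%), with Col8a2 (score 13, FS2-AEBP2 score 2), Adamts17 (score 12, FS2-AEBP2 score 8) and Lamc3 (score 10, none). Among the genes for Polycomb proteins, 7 promoters carried H3K27me3 and 2 of them had a member alone. These were Phf19 (score 9, 2226 bp), whose protein is an accessory factor of another form of PRC2, and Phc2 (score 5, 496 bp), a subunit of PRC1, and neither member overlapped an FS2-AEBP2 peak, although one lay elsewhere at the Phc2 promoter. The CDK inhibitors had no member, with 2 of 3 H3K27me3 promoters under a replicate 1 peak. None of the 82 ribosomal protein promoters, genes that every cell uses, had H3K27me3 in both lists or a member, although 11 had a replicate 1 peak.

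**Figure D4:**
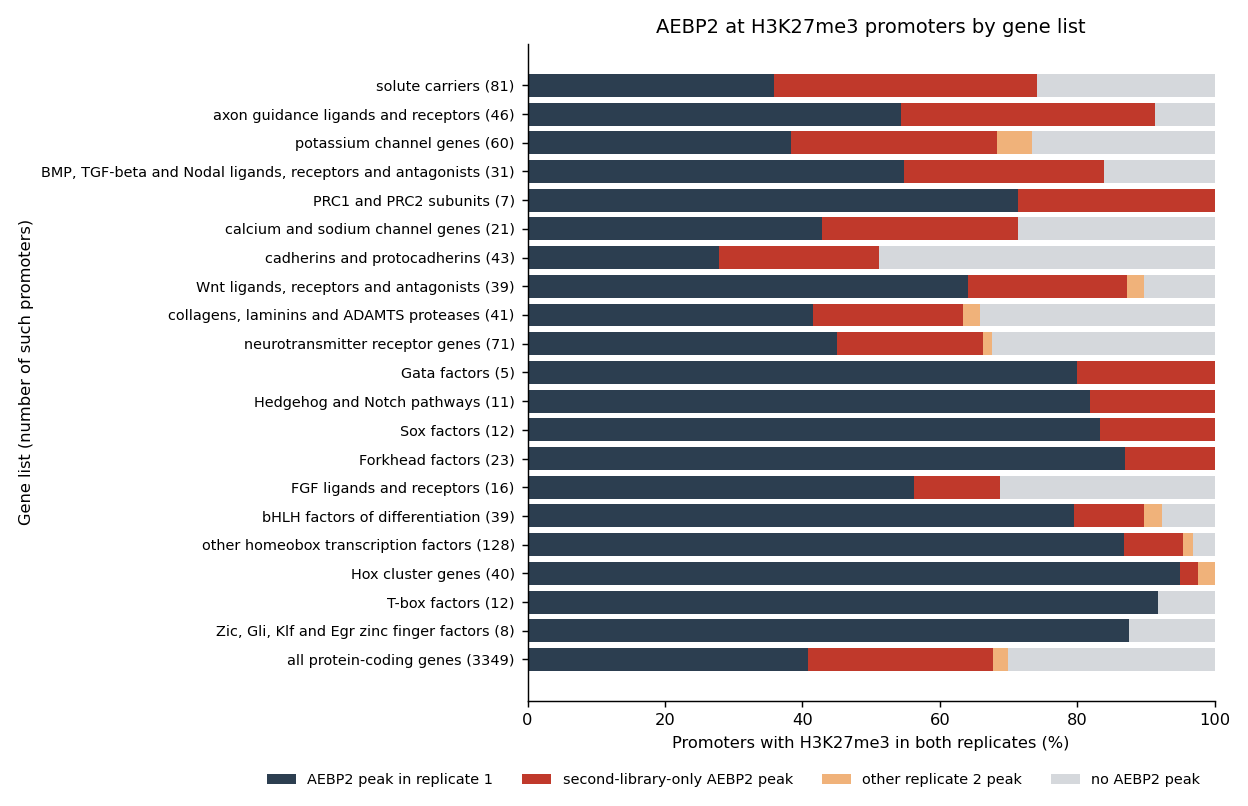
H3K27me3-marked promoters of each gene list (y axis, number of such promoters in brackets) split by AEBP2 class (x axis, %). The red part, a member with no replicate 1 peak, is 38.3% for solute carriers, 37.0% for axon guidance genes and 2.5% for Hox genes, against 26.8% for all protein-coding genes (lowest bar), while the dark part, a replicate 1 peak, is 95% for Hox genes and 35.8% for solute carriers. A promoter with a replicate 1 peak cannot be red, so a large dark part leaves little room for red.

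Short motifs were counted in the central 300 bp of each peak, on both strands. GAGAGAGA, the repeat bound by GAGA factor in flies, was in 2.77% of members, 4.91% of shared peaks and 2.43% of second-library-only peaks without H3K27me3, and in 4.10% of all protein-coding promoters. The E-box CACGTG was in 7.11%, 5.41% and 8.89% of these classes and in 7.78% of promoters. GCGCGC, which holds 2 CpG, was in 26.6% of members (24.4 to 28.8%), 25.2% of shared peaks (23.3 to 27.3%) and 34.9% of the peaks without H3K27me3 (33.1 to 36.8%), against 16.6% of promoters (16.1 to 17.1%). For this last motif the intervals of members and shared peaks overlapped. A match is a description of letters in the window and says nothing of what binds there.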

How the data were processed

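Peak lists of 5 wild-type mESC libraries were used: endogenous AEBP2 (2 replicates), H3K27me3 (2 replicates) and FS2-AEBP2 (1 sample). The SUZ12, input and Aebp2-mutant samples were not analysed here. The submitters' processing notes name the build mm9 and the tools Bowtie, SAMtools, Picard and MACS2 2.0.10.2. Thresholds, control libraries and the number of reads are not given in the sources used here. The authors deposited for each broad peak its start, end, stronger blocks and a whole-number score, whose scale is not stated, so scores were compared within a list only.

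Lists were matched to samples by the sample records. Peaks outside chromosomes 1 to 19, X and Y were left out (2 of AEBP2 replicate 1 and 13 of H3K27me3 replicate 2). Overlap was at least 1 bp. Start sites of protein-coding genes, 1 per gene at its annotated 5′ end, came from GENCODE vM1, and a promoter was 1 kb on either side. Alternative transcript starts were not used. Peaks outside promoters were placed in exons, introns or outside genes by their midpoint. CpG-island-like regions were computed from the NCBIM37 (mm9) sequence every 10 bp. Shares have Wilson and differences Newcombe 95% intervals, which cover counting error over peaks only and treat peaks of the same region as independent. A difference was called where its interval left out 0. Alternatives changed the overlap, the distance to replicate 1, the score, length and chromosomes used, the H3K27me3 lists, the FS2-AEBP2 overlap and score, the CpG windows (200 bp) and the promoter (2.5 kb). The functions were tested on simulated data. Python 3.11.15, numpy 2.4.6, pandas 2.3.3, scipy 1.17.1 and matplotlib 3.10.9 were used.

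The members and gene lists were chosen with earlier results of these data known. Named are the 12 promoter members of highest score, the 5 longest members, the 2 to 4 genes of highest score in each gene list that has a member (1 where it has only 1), the 3 highest scoring members over 10 kb from a start site, and the 3 peaks nearest to the rule's limit on each side. Of the genes so chosen, 5 are not reported here. Strata by score, by H3K27me3 length and by the presence of a replicate 1 peak, and the counts over promoters, were added after seeing the data. Sequences were limited to the longest stretch free of UTR in a window of 300 bases inside the member.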

Additional observations from a re-analysis of the deposited data

How the results depend on the processing

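The 77 alternative values comprised 72 that kept the direction and side of the threshold or stayed within 1.5 times the count. Of the rest, 3 concerned the CpG-island-like share of members minus that of second-library-only peaks without H3K27me3, which was -4.68 points. It turned to 2.18 points (-0.231 to 4.51) for members with no replicate 1 peak within 5 kb, and its interval held 0 with CpG windows of 200 bp (-0.556 points) and with scores at or above the median (-0.914 points). The last setting also left 659 members, against 1589, and 427 genes with a member at the promoter, against 912, since it drops the lower scores. Leaving out each H3K27me3 list gave 1670 and 1769 members. The FS2-AEBP2 differences stayed at -54.0 to -42.4 points from the shared peaks and 5.85 to 26.5 points from the peaks without H3K27me3. Between members with and without a replicate 1 peak in their region the difference stayed at 12.4 to 25.7 points. It was 29.2 points with FS2-AEBP2 peaks within 1 kb, which can belong to neighbouring AEBP2 peaks. The promoter differences stayed at -14.5 to -5.81 and -17.8 to -8.95 points. Neither AEBP2 replicate could be left out, because the rule needs both. No paired analysis was possible because the results are overlaps of peak lists and come from no test across samples. The unknown depth and 1 FS2-AEBP2 library limit all comparisons.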
